A study of Mus musculus with 18 samples.

Results

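Kidney RNA from male (M) and female (F) mice of 1 cohort was compared across the autosomal genes, in 15 of the 18 libraries of the series. The 10 M libraries (5 LP and 5 NP) were set against 5 F libraries (3 LP and 2 NP), chosen for interferon and glucocorticoid gene levels like those of the males, a match that was only partial. The other 3 F libraries (LP F 1, LP F 2, and NP F 3) had lower levels of most of those genes and were left out of the comparison. LP animals are wild-type offspring of CD-1 dams, an outbred strain, fed 8% protein from mating to weaning, and NP animals are wild-type offspring of dams fed 18% protein. All offspring ate the 18% diet after weaning and were killed at 6 wk, after a transdermal measurement of glomerular filtration rate and injections of cationic ferritin, an iron-protein label of the glomerulus used for imaging. The last injection came 90 min before M kidneys were taken and 24 h before F kidneys were, so sex and that time cannot be told apart here. Each library is 1 mouse. For the source of the RNA, the extraction notes name part of the left kidney and the series description names all of 1 kidney.

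Most of the cortex is proximal tubule, the segment that takes back sugar, phosphate, amino acids, and water and secretes drugs and organic anions. In the mouse this segment differs between the sexes more than any other part of the kidney, and testosterone acting on the androgen receptor is known to raise many of its transporters and enzymes in males. Growth hormone, prolactin, and estrogen signaling also feed into sex-biased genes of liver and kidney. The named markers of the male pattern are Slco1a1, Cyp4a12a, Slc7a13, and Acsm3, all known as proximal tubule genes.

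Between 14050486 and 23562411 reads per library fell on genes. Levels are given below as normalized counts, which are read counts scaled to one library size, and they are not corrected for gene length. In M libraries, summed counts of the Y-linked genes Uty, Ddx3y, Kdm5d, and Eif2s3y lay between 82.7% and 116% of the M mean. In the 5 F libraries they were at 0.0664%, 0.275%, 0%, 0.644%, and 0.491% of that mean (LP F 3, LP F 4, LP F 5, NP F 1, and NP F 2, the order used for F values throughout). NP F 3, which was left out, reached 2.58%. Conversely, Xist, which is transcribed from the inactive X chromosome, stood at 1.03% of the F mean in LP M 2 and at 0.105% or less in the other M libraries. For the most extreme differences, an F level near those percentages cannot be told apart from a trace of M RNA.

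The interferon and glucocorticoid genes had a part in the choice of F libraries, so their levels are a description. Ifit1, an antiviral effector induced by interferon, ran from 1977 to 4393 (median 2588) in M, from 2708 to 11730 (median 4562) in F, and from 72.4 to 94.7 in the left-out F libraries. Fkbp5, a chaperone gene induced by glucocorticoids, ran from 5649 to 10360 (median 7035) in M, from 4222 to 8608 (median 7118) in F, and from 364 to 749.9 in the left-out F libraries. M and F ranges overlapped for 20 of 22 interferon genes and 11 of 17 glucocorticoid genes with counts. The match was not exact. By the threshold used for calls below, 13 of the 22 and 10 of the 17 were higher in F. The median log2 fold change, M minus F, was -0.68 over the 22 interferon genes and -0.92 over the 17 glucocorticoid genes. With all 18 libraries in the fit, 1 and 6 of them were called higher in F. These counts depend on the choice of F libraries and are a description, not a test. Gbp3, a guanylate-binding protein, ran from 651 to 1440 (median 1030) in M, from 3009 to 4068 (median 3997) in F, and from 385 to 1116 in the left-out F libraries, and Sgk1, a kinase that raises sodium transport, ran from 1059 to 1919 (median 1579) in M, from 4873 to 9987 (median 6403) in F, and from 1399 to 3982 in the left-out F libraries. For both of these genes all 5 F libraries lay above all 10 M libraries.

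Of 15127 autosomal genes tested, 2904 differed between M and F by at least 1.5-fold at an adjusted p under 0.05 (the quasi-likelihood test of edgeR with Benjamini-Hochberg adjustment and diet as a covariate), and these are called below. The ± after a log2 fold change is its SE throughout. There were 1186 genes called higher in M, which is 7.84% of the genes tested, and 1718 called higher in F, which is 11.4%. The 10 M and 5 F libraries did not overlap at all for 795 of the genes higher in M (5.26% of the genes tested) and for 667 of the genes higher in F (4.41%). Large differences were more often toward M: 74 genes were called at least 16-fold higher in M and 36 at least 16-fold higher in F, and 28 against 10 genes were called at least 64-fold apart. Genes called higher in M took 24% of the autosomal counts of M kidneys and 10.8% of those of F kidneys. Genes called higher in F took 5.32% in M and 12.4% in F. The kidney androgen-regulated protein gene Kap alone took between 2.41% and 4.37% of the autosomal counts in M and between 0.989% and 2.24% in F. In whole tissue, fewer cells of a type and less RNA per cell cannot be told apart.

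**Figure D1:**
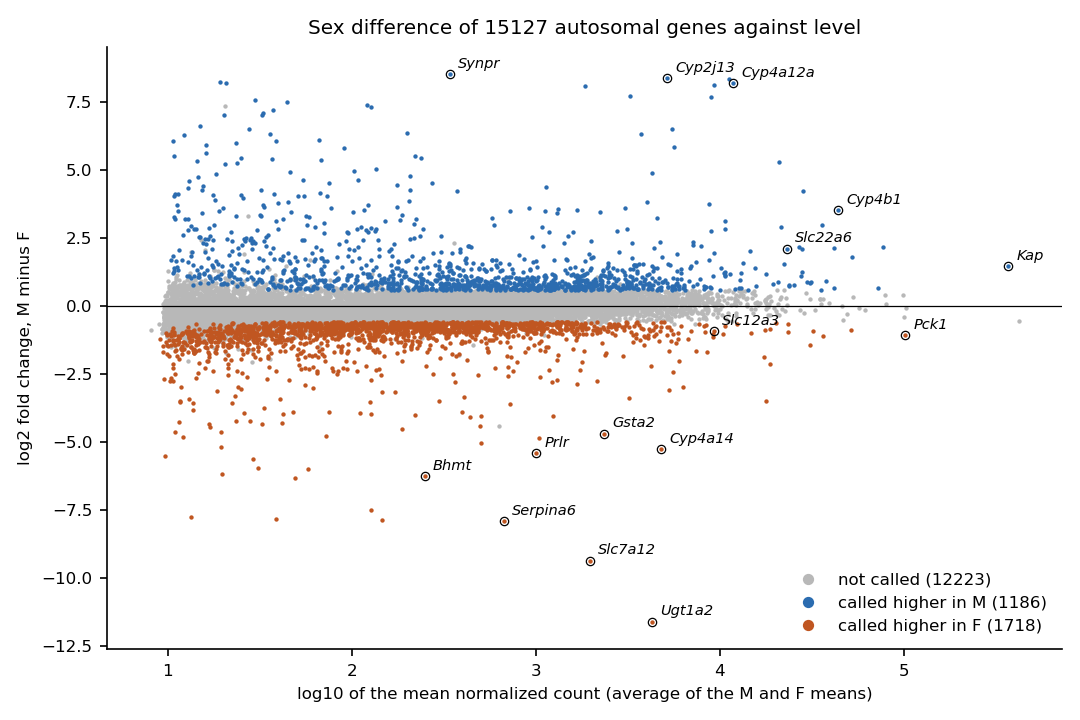
Each point is 1 of the 15127 genes tested, with the log10 of its mean normalized count on the horizontal axis and its log2 fold change, M minus F, on the vertical axis. Blue points are the 1186 genes called higher in M, orange points the 1718 called higher in F, and grey points the rest. Cyp4a12a and Cyp2j13 sit near the top among abundant genes, and Ugt1a2 and Slc7a12 lie farthest below 0.

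All 4 markers, which were picked with results of these libraries known, were higher in M. Slco1a1 (ENSMUSG00000041698.12, GRCm39 chr6:141853007-141892690) encodes an organic anion transporter of the apical membrane. Its normalized count ran from 12401 to 25139 (median 17852) in M and was 19.6, 78, 14.6, 109.9 and 117 in F. Every M library exceeded every F library by a wide margin, and the log2 fold change, M minus F, was 8.14 ± 0.42, adjusted p = 7.69e-10. Cyp4a12a (ENSMUSG00000066071.7, chr4:115156243-115190012) encodes the arachidonic acid hydroxylase that makes the vasoconstrictor 20-HETE. It ran from 12005 to 43256 (median 23845) in M, and the F values were 41, 66.4, 35.4, 188 and 79.1. The groups were again far apart, with a log2 fold change of 8.21 ± 0.47, adjusted p = 2.18e-09.

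Slc7a13 (ENSMUSG00000041052.9, chr4:19818725-19842218), a transporter of cystine and acidic amino acids in the last segment of the proximal tubule, ran from 10798 to 23472 (median 18091) in M. In F it was 22.3, 27.4, 34.7, 342 and 76.3, with NP F 1 the highest. The log2 fold change was 7.68 ± 0.59, adjusted p = 7.08e-08. Acsm3 (ENSMUSG00000030935.16, chr7:119360137-119386736), a mitochondrial enzyme that activates medium-chain fatty acids, ran from 16501 to 29593 (median 22243) in M and was 8.9, 67.4, 57, 113 and 104 in F. LP F 3 was the lowest of these, no F library came near the M range, and the log2 fold change was 8.35 ± 0.41, adjusted p = 4.54e-10. NP F 1 and NP F 2 held 0.598% and 0.635% of the M mean of Slco1a1, 0.802% and 0.337% of that of Cyp4a12a, 1.92% and 0.429% of that of Slc7a13, and 0.503% and 0.462% of that of Acsm3. Beside them stand Y-linked counts of 0.644% and 0.491%, and the part of trace M RNA in these F values was not tested. Within LP the log2 fold changes of the 4 genes were 8.79, 8.88, 9.23, and 8.92, and within NP they were 7.52, 7.52, 6.44, and 7.73.

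**Figure D2:**
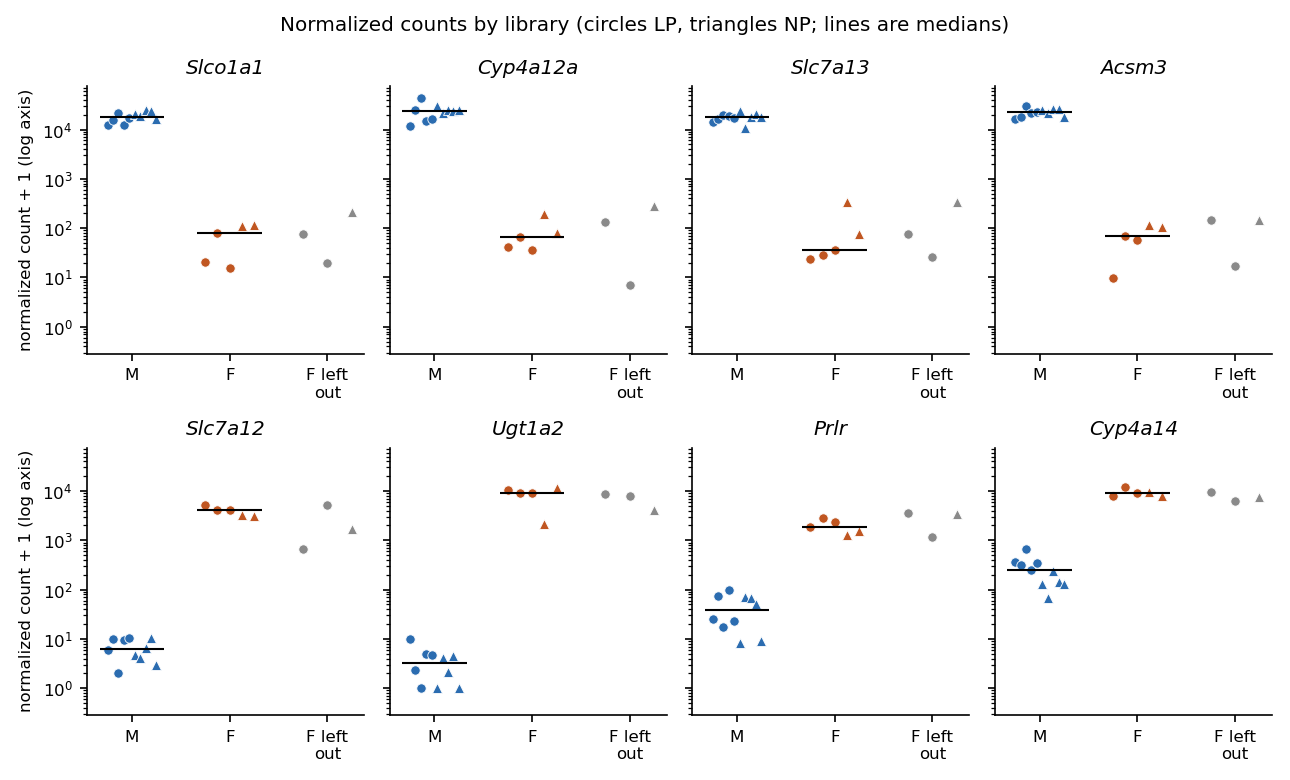
Normalized counts plus 1 on a log axis for 4 genes higher in M (top) and 4 higher in F (bottom), with 1 point per library (circles LP, triangles NP) and black lines at the medians of the 10 M and 5 F libraries. Grey points are the 3 F libraries left out, which lie on the F side of every male for all 8 genes.

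The remaining genes with the largest differences toward M were enzymes, 1 protease inhibitor, and 3 genes better known from the nervous system. Cyp2j13, a cytochrome P450, ran from 7742 to 13041 (median 9988) in M and was 14.3, 28.5, 4.9, 75.3 and 38.6 in F (log2 fold change 8.39 ± 0.41, adjusted p = 3.75e-10). Ugt2b37, which attaches glucuronic acid to steroids and drugs, ran from 2492 to 4674 (median 3637) in M against 1.8, 31.6, 2.8, 24.4 and 10.4 in F (log2 fold change 8.09 ± 0.43, adjusted p = 8.81e-10). For neither gene did any F library reach 1% of the M mean.

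Pzp, which encodes a broad protease inhibitor of the alpha-2-macroglobulin family, ran from 5315 to 7706 (median 6573) in M and was 13.4, 22.1, 11.1, 69.2 and 43.3 in F (log2 fold change 7.71 ± 0.31, adjusted p = 5.27e-11). Cyp7b1, the oxysterol 7-alpha-hydroxylase, ran from 4429 to 11190 (median 6844) in M and was 90.9, 92.7, 121, 96.6 and 61.2 in F (log2 fold change 6.31 ± 0.28, adjusted p = 1.83e-10). F values of Cyp7b1 lay close together. Inmt, a methyltransferase of tryptamine and other amines, ran from 7182 to 17382 (median 9907) in M and was 59.7, 73.8, 66.7, 357 and 69.7 in F, where NP F 1 stood apart (log2 fold change 6.49 ± 0.39, adjusted p = 3.67e-09).

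Synpr, a synaptic vesicle membrane protein gene, varied widely in M, from 49.2 to 1872 (median 622), and was at 0 in 4 F libraries and at 9.2 in NP F 1 (log2 fold change 8.52 ± 1.19, adjusted p = 4.11e-05). Mpped1, a metallophosphoesterase gene, ran from 139.6 to 377 (median 226) in M and was at 0 in the same 4 F libraries and at 7.1 in NP F 1 (log2 fold change 7.38 ± 0.51, adjusted p = 1.82e-08). Cntnap5a, a cell adhesion gene of the neurexin family, ran from 132 to 359 (median 258) in M and was 0, 0, 0.7, 2 and 4.7 in F (log2 fold change 7.31 ± 0.45, adjusted p = 4.88e-09). With F at or near 0, the sizes of these 3 differences rest on a handful of reads. The smallest adjusted p toward M belonged to Chst11, a chondroitin 4-O-sulfotransferase, which ran from 1801 to 2848 (median 2444) in M and was 252, 189.7, 199, 166 and 213 in F (log2 fold change 3.57 ± 0.12, adjusted p = 1.75e-11). Sdc2, the heparan sulfate proteoglycan syndecan 2, differed less but with little spread: from 2835 to 3295 (median 3087) in M and 765, 828, 716, 960.3 and 778 in F (log2 fold change 1.91 ± 0.08, adjusted p = 6.73e-11). Gm45645, a lncRNA gene with no assigned role, ran from 108 to 178 (median 143) in M and was 9.8, 6.3, 11.1, 15.3 and 14.1 in F (log2 fold change 3.59 ± 0.17, adjusted p = 2.25e-10).

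Toward F, the largest difference was that of Ugt1a2 (ENSMUSG00000090171.2, chr1:88128323-88147724), a glucuronosyltransferase. It was 10573, 9274, 9088, 2177 and 11381 in F and between 0 and 8.8 in M (median 2.21), a log2 fold change of -11.61 ± 0.42, adjusted p = 2.16e-11. NP F 1 held the lowest F value and still lay far above every male. Genes of the Ugt1a locus share their last exons, so counts of each rest on its own first exon. Slc7a12 (ENSMUSG00000039710.15, chr3:14545757-14570890), a neutral amino acid transporter of the same family as Slc7a13, was 5155, 4103, 4031, 3241 and 3100.1 in F and between 0.963 and 9.6 in M. It had the smallest adjusted p of all genes, with a log2 fold change of -9.37 ± 0.20, adjusted p = 1.41e-14. Slc7a12 and Slc7a13, of 1 transporter family, thus differed in opposite directions.

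Serpina6 encodes corticosteroid-binding globulin, the plasma carrier of cortisol and corticosterone. It was 2885, 1232, 1512, 395 and 649 in F and between 0 and 18.9 in M (median 1.68), with a log2 fold change of -7.91 ± 0.42, adjusted p = 8.81e-10 and a wide spread among F libraries. Tmprss6, the membrane protease that holds back hepcidin, was 217, 618, 274, 186 and 169.5 in F and at 3.7 or less in every male (log2 fold change -7.85 ± 0.42, adjusted p = 1.09e-09). Slc17a2, an organic anion and phosphate transporter, was 308, 259, 215, 318 and 160.1 in F and at 2.88 or less in every male (log2 fold change -7.49 ± 0.36, adjusted p = 3.88e-10).

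Bhmt, which remethylates homocysteine from betaine, was 393, 694, 495, 581 and 293 in F and ran from 2.47 to 17.6 in M (log2 fold change -6.26 ± 0.29, adjusted p = 2.25e-10). Prlr, the prolactin receptor, was 1906, 2798, 2329.7, 1295 and 1526 in F and ran from 7.41 to 97.6 in M (log2 fold change -5.42 ± 0.41, adjusted p = 6.69e-08). Abcc3, an efflux pump of the basolateral membrane for conjugated bile acids and glucuronides, was 2488, 2431, 1936, 1850.5 and 1355 in F and ran from 28.4 to 128 in M (log2 fold change -4.85 ± 0.23, adjusted p = 2.38e-10).

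Kynu, the kynureninase of tryptophan breakdown, was 852, 893, 1035, 724 and 1264 in F and ran from 16.3 to 102 in M (log2 fold change -4.43 ± 0.30, adjusted p = 1.78e-08). Cbr1, a carbonyl reductase, was 5586, 7734, 5472, 6621 and 4002 in F and ran from 470.4 to 743 in M (log2 fold change -3.40 ± 0.13, adjusted p = 4.27e-11). Spidr, a scaffold of DNA repair by recombination, was 1519, 1836, 1449.6, 1030.5 and 901 in F and ran from 79.5 to 127 in M (log2 fold change -3.60 ± 0.13, adjusted p = 2.16e-11). Counting ignored strand, and Spidr is among the 17 of these 29 genes named by rule that have an annotated gene on the other strand within or across their span. Reads of such partners cannot be told apart where exons overlap.

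Organic ion transporters were divided between the sexes. Of 42 tested, 12 were called higher in M and 12 higher in F, and their median log2 fold change was -0.18 against -0.04 over all genes tested, of which 7.84% and 11.4% were called in the same directions. Those shares of all genes tested stand beside every list count below. The main basolateral uptake carrier Slc22a6 (OAT1) ran from 27903 to 47324 (median 36987) in M and was 9080, 9632, 7353, 8762 and 7804 in F (log2 fold change 2.11 ± 0.14, adjusted p = 9.18e-09). Its neighbor and partner in anion uptake, Slc22a8 (OAT3), went the other way, from 2617 to 4562 (median 3621) in M and 10656, 12485, 11405, 9550.5 and 12099.9 in F (log2 fold change -1.64 ± 0.11, adjusted p = 1.78e-08). Neither pair of ranges overlapped.

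Also higher in M were the urate exchanger Slc22a12 (1.55 ± 0.19), the cation uptake carrier Slc22a2 (OCT2, 1.38 ± 0.15), the cation exporter Slc47a1 (MATE1, 1.24 ± 0.10), and Slco4c1, an uptake carrier of steroid and cardiac glycoside conjugates (2.59 ± 0.23). These values are log2 fold changes with their SE. Higher in F, besides Abcc3, were the drug efflux pumps Abcb1b and Abcb1a (P-glycoproteins, -3.91 ± 0.23 and -2.21 ± 0.22), the exporter Abcc4 (-1.54 ± 0.22), and the prostaglandin carrier Slco2a1 (-1.14 ± 0.07). Slc22a7 (OAT2), an anion carrier known for sex bias in rodents, was not called, from 3366 to 11982 (median 7998) in M against 5321, 8719, 6036, 10982 and 4535 in F (log2 fold change 0.15 ± 0.26, adjusted p = 0.684).

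Of 15 gene families, most of them of neighboring genes, 12 had calls in both directions and 3 in 1 direction (Gsta toward F, Cyp2j and Acsm toward M). Slc7a12 and Slc7a13, counted among the 12, lie on chromosomes 3 and 4 and are not neighbors. Gsta3 lies on chromosome 1, apart from the other Gsta genes on chromosome 9. These families, and those described here, were chosen after their values were seen. On chromosome 19, the tested genes Slc22a27, Slc22a28, Slc22a29, Slc22a30, Slc22a8, and Slc22a6 follow each other in this order, and the sex with the higher level was F, M, F, M, F, and M. Just before these 6 lie Slc22a26 (0.16 ± 0.22, adjusted p = 0.604) and Slc22a19 (-0.48 ± 0.19, adjusted p = 0.0639), which were not called, and the M-high Slc22a12. Slc22a27 averaged 44.8 ± 15.8 (SD, n = 5) in F and 5.42 ± 3.71 (SD, n = 10) in M (log2 fold change -3.04 ± 0.42, adjusted p = 3.65e-05). Slc22a28 was 252, 321, 373, 526 and 391 in F and ran from 3054 to 5193 (median 4153) in M (log2 fold change 3.45 ± 0.17, adjusted p = 4.54e-10). Slc22a29 was 895, 776, 781, 589 and 1097 in F and ran from 22.2 to 113 (median 37.3) in M (log2 fold change -4.08 ± 0.26, adjusted p = 5.86e-09). Slc22a30 was 186, 217, 272, 478 and 240.1 in F and ran from 4793 to 11644 (median 8491) in M (log2 fold change 4.88 ± 0.25, adjusted p = 6.32e-10). For these 3 genes no M value lay within the F range.

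The 250 bases before the start sites of these 3 neighbors are shown because genes of opposite sex bias can be compared with genes of the same bias. They come from RefSeq (GRCm38.p6, whose coordinates differ from those of the count files) and read 5′ to 3′ along the gene. Slc22a28 (chr19:8131983-8132232, minus strand) and Slc22a30 (chr19:8405106-8405355, minus strand), both higher in M, were identical at 93.0% of 256 aligned positions. Slc22a29 (chr19:8218901-8219150, minus strand), higher in F, was identical to Slc22a30 at 64.7% of 275 positions and to Slc22a28 at 65.4% of 269. Positions with a base in only 1 window count as not identical. Other pairs of the same bias were identical at 51.3% (Slc17a1 and Slc17a3), 82.3% (Ugt2b5 and Ugt2b38), and 85.6% (Ugt2b37 and Ugt2b38). Pairs of opposite bias were so at 50.6% (Slc22a6 and Slc22a8) and 47.7% (Slc17a2 and Slc17a3), besides the Cyp2a pair below. Capitals mark bases of Slc22a28 and Slc22a30 that differ from, or have no partner in, the other of the pair, and bases of Slc22a29 that do so against Slc22a30.
Slc22a28: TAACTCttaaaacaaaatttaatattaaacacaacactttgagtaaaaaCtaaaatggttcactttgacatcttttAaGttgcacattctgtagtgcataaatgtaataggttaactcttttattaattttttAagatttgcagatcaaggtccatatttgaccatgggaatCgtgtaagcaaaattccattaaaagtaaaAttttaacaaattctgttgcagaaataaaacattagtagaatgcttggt
Slc22a30: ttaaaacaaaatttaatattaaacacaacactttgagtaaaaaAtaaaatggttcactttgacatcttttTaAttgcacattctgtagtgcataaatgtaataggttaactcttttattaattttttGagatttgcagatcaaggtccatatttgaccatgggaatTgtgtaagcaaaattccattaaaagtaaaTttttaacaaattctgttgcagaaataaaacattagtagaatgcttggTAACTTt
Slc22a29: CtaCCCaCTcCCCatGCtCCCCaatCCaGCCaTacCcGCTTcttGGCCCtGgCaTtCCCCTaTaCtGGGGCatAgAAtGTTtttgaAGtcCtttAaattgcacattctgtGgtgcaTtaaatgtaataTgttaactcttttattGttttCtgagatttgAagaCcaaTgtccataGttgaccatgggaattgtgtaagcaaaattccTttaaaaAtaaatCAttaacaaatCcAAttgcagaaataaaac

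Cyp2a4 and Cyp2a5, steroid and coumarin hydroxylases on chromosome 7, gave the closest pair. Their windows (chr7:26306942-26307191 and chr7:26835089-26835338, plus strand) were identical at 97.6% of 251 aligned positions. Capitals mark the bases that differ or have no partner.
Cyp2a4: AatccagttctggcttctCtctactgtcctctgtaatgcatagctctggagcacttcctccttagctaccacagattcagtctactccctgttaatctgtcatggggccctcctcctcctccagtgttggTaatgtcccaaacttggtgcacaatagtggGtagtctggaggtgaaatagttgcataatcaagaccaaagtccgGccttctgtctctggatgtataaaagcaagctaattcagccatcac
Cyp2a5: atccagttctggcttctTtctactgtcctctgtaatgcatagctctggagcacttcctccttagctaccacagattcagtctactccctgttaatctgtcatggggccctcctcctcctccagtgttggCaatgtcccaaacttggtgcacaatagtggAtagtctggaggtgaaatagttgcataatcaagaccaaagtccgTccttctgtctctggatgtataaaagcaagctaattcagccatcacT

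Cyp2a5 ran from 379 to 1060.2 (median 582) in M and was 3197, 3371, 2824, 3772 and 1285 in F, with no overlap (log2 fold change -2.07 ± 0.25, adjusted p = 1.15e-05). Cyp2a4 ran from 3950.2 to 9855 (median 6657) in M and was 3945, 4918, 3159, 5991 and 2184 in F, where the ranges overlapped (log2 fold change 0.75 ± 0.23, adjusted p = 0.0183). On the list of female-high kidney genes of the field it was the 1 gene called higher in M, and without LP F 5 or NP F 2 its adjusted p rose to 0.0512 or 0.0538. The transcripts of such near-identical copies share most of their sequence. Reads of Cyp2a4 and Cyp2a5 may have been left unassigned or placed on the wrong copy, so the counts of both are uncertain. None of the 5 windows shown holds the letters AGAACA on either strand (reverse complement TGTTCT), the core letters of the sites of the androgen and glucocorticoid receptors, which 16.1% of all 32851 RefSeq windows of this length hold. Windows of genes called higher in M held it in 13%, those of genes called higher in F in 13.9%, and those of genes tested but not called in 10.5%. The letters TTCNNNGAA, the palindrome bound by STAT5, were also in none of the 5 windows, and stood in 6.29% of windows of genes higher in M, 7.65% of those higher in F, and 5.84% of those not called (7.02% of all windows).

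**Figure D3:**
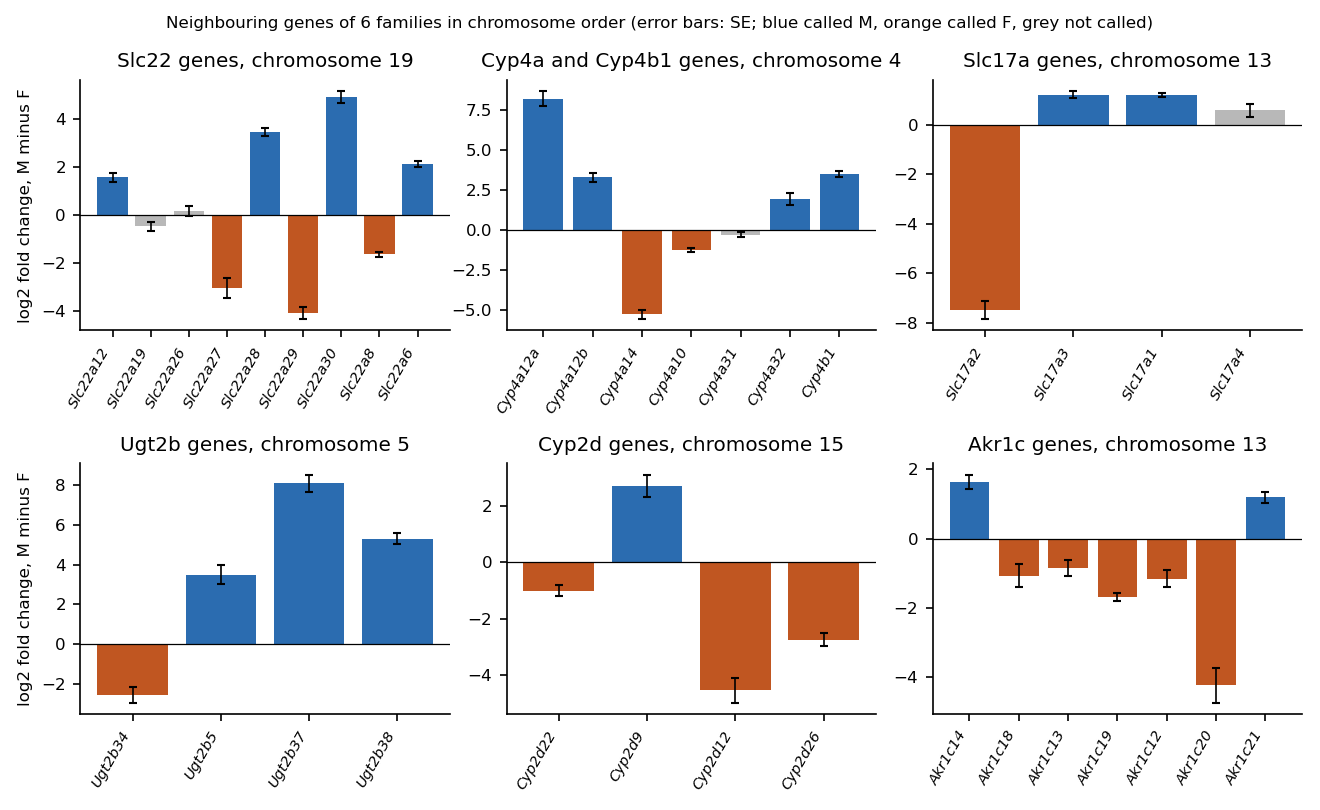
Bars give the log2 fold change, M minus F, and error bars its SE, for the tested members of 6 gene families in chromosome order. Blue bars are called higher in M, orange bars higher in F, and grey bars not called. Within the Slc22, Cyp4a, Slc17a, Ugt2b, Cyp2d, and Akr1c groups at least 1 gene is called in each direction.

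The Cyp4a genes on chromosome 4, whose products hydroxylate fatty acids, were split in the same manner. Cyp4a12a, Cyp4a12b (3.31 ± 0.28), Cyp4a32 (1.95 ± 0.35), and the next gene Cyp4b1 (3.53 ± 0.18) were higher in M, with the log2 fold change and SE in brackets. Cyp4a14 and Cyp4a10, which lie between them and are known as targets of the fatty acid sensor PPAR-alpha, were higher in F. Cyp4a14 ran from 68 to 659.5 (median 246) in M and was 7851, 12091, 9160.3, 9642 and 7810.4 in F (log2 fold change -5.26 ± 0.29, adjusted p = 1.38e-09). Cyp4a10 ran from 1835 to 4362 (median 3749) in M and was 6321, 11178, 8854, 8149.7 and 7118 in F (log2 fold change -1.22 ± 0.14, adjusted p = 6.49e-06). Cyp4a31 did not pass (-0.27 ± 0.18, adjusted p = 0.276). Over the CYP4 list 5 of 13 tested genes were called higher in M and 3 higher in F, with a median log2 fold change of -0.27.

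On chromosome 13 the phosphate and urate carriers Slc17a3 (1.22 ± 0.14, adjusted p = 4.56e-06) and Slc17a1 (1.21 ± 0.07, adjusted p = 2.88e-09) were higher in M beside the F-high Slc17a2. In the Ugt2b group, Ugt2b38 averaged 40604 ± 9295 (SD, n = 10) in M and 1019.7 ± 289.7 (SD, n = 5) in F, while Ugt2b34 averaged 141 ± 81.9 in M and 828 ± 366 in F. Both differences were called, with log2 fold changes of 5.31 ± 0.26 and -2.56 ± 0.39. Among Cyp2d genes, Cyp2d9 was higher in M (2.71 ± 0.39) and Cyp2d26 (-2.75 ± 0.22) and Cyp2d12 (-4.54 ± 0.44) higher in F. Of 7 Akr1c genes tested, which reduce steroids and prostaglandins, Akr1c14 (1.64 ± 0.20) and Akr1c21 (1.19 ± 0.16) were higher in M and 5 genes between them higher in F, led by Akr1c20 (-4.23 ± 0.50). Reads shared by close copies within these families may have been left unassigned or placed on the wrong copy, so their counts are uncertain.

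Of 31 amino acid and peptide transporters tested, 4 were called higher in M and 10 higher in F, with a median log2 fold change of -0.41. With all 18 libraries these were 5 and 7, with a median of -0.22. Besides Slc7a13, the genes higher in M were Slc1a4 (1.34 ± 0.18), Slc36a1 (1.22 ± 0.16), and Slc7a2 (1.07 ± 0.32), the last of which was not called in LP alone (adjusted p = 0.0943, edgeR) or in NP alone (adjusted p = 0.152, edgeR). Higher in F, besides Slc7a12, were the glutamine carrier Slc1a5 (-1.27 ± 0.13), the basolateral neutral amino acid exchanger Slc7a8 (-1.09 ± 0.30), the apical carrier Slc6a18 (-1.0 ± 0.17), the peptide carrier Slc15a2 (-0.82 ± 0.09), and Slc7a9 (-0.79 ± 0.19), which carries cystine and is mutated in cystinuria. The M and F ranges of Slc1a5 and of Slc15a2 did not overlap, and those of the other 3 did. In the left-out F libraries, however, Slc1a5 ran from 558 to 643, within its M range of 469 to 931. Slc36a1 ran from 1421 to 2154 in those libraries, within its M range of 1356 to 2448. Without NP F 2, Slc7a8 was no longer called (log2 fold change -0.69, adjusted p = 0.109, edgeR).

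Transport of sugar, phosphate, sulfate, and urate gave 6 of 43 genes higher in M and 13 higher in F (median log2 fold change -0.04). The lactate and butyrate carrier Slc5a8 was higher in M (from 3798 to 6468 in M against from 1324 to 2484 in F, log2 fold change 1.52 ± 0.14, adjusted p = 5.03e-07). The glucose carrier of the last proximal segment, Slc5a1 (SGLT1), was higher in F (from 986 to 1502 in M against from 1901 to 3436 in F, log2 fold change -1.03 ± 0.10, adjusted p = 9.21e-07). Slc5a2 (SGLT2), the glucose carrier of the first segment, was not called, from 2733 to 7044 in M and from 2028 to 7780.3 in F (log2 fold change -0.28 ± 0.26, adjusted p = 0.419). Slc34a1, the main phosphate carrier, was not called either (0.41 ± 0.11, adjusted p = 0.0116).

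Of 45 conjugating enzymes tested, 12 were called higher in M and 17 higher in F (median 0.08). The glucuronosyltransferases and the glutathione S-transferases had different counts. Among 13 genes with Ugt symbols tested, 7 were called higher in M and 3 higher in F. Among 20 with Gst symbols 12 were called, each of them higher in F (median log2 fold change -0.74). Gsta2, a liver and kidney enzyme that detoxifies lipid peroxides, ran from 95.9 to 264 in M and was 4348, 5406, 4506, 3834 and 4596 in F (log2 fold change -4.70 ± 0.19, adjusted p = 4.32e-11). Gsta5 beside it ran from 19.3 to 42.9 in M and was 1196, 1476, 751, 392 and 1093 in F (log2 fold change -5.05 ± 0.23, adjusted p = 1.83e-10). Gsta3 (-1.45 ± 0.11), Gsto1 (-1.54 ± 0.13), and Gstm7 (-1.72 ± 0.16) were also higher in F.

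Other cytochromes P450 gave 8 of 28 genes in each direction (median -0.21). Cyp2e1, which oxidizes ethanol and solvents, ran from 30758 to 71798 (median 53743) in M and was 1762, 2928, 2869, 5005 and 1498 in F (log2 fold change 4.22 ± 0.29, adjusted p = 1.78e-08). Cyp2c23, an arachidonic acid epoxygenase, was higher in F (-1.67 ± 0.22). Steroid metabolism gave 12 of 32 genes higher in M and 11 higher in F (median 0.25). Hsd11b1, which regenerates active glucocorticoid, ran from 1636 to 10172 (median 5649.8) in M and was 357, 217, 404, 551 and 702 in F (log2 fold change 3.60 ± 0.39, adjusted p = 3.39e-06). Hsd11b2, which inactivates glucocorticoid in the collecting duct, was higher in F (-0.65 ± 0.14, adjusted p = 0.00211), with overlapping ranges. Without NP F 1 its log2 fold change was -0.51 and it was no longer called, and 7 genes of the list in place of 11 were called higher in F. Hsd17b11 (3.13 ± 0.18) was higher in M and Hsd17b14 (-3.18 ± 0.22) higher in F, both dehydrogenases at position 17 of the steroid ring.

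Genes of fatty acid activation and oxidation were called higher in M for 12 of 54 and higher in F for 10 (median 0.06). Cd36, the fatty acid uptake receptor, ran from 12745 to 25644 (median 18703) in M and was 2615, 2646, 2744, 3039 and 1805 in F (log2 fold change 2.84 ± 0.19, adjusted p = 1.46e-08). Acsm2, a medium-chain acyl-CoA synthetase near Acsm3, was higher in M (2.16 ± 0.17, adjusted p = 1.21e-07), as was the peroxisomal carnitine octanoyltransferase Crot (1.95 ± 0.16). Higher in F were the mitochondrial thiolase Acaa2 (-1.42 ± 0.10, adjusted p = 2.29e-08), the long-chain acyl-CoA synthetase Acsl1 (-1.35 ± 0.18), and the peroxisomal oxidase Hao2 (-1.70 ± 0.18). In gluconeogenesis and glycolysis, Pck1, the rate-limiting enzyme of glucose production, was higher in F (from 45732 to 83823 in M against from 109570 to 165130 in F, log2 fold change -1.06 ± 0.13, adjusted p = 1.58e-05), and Ldhd, the D-lactate dehydrogenase, higher in M (2.17 ± 0.16, adjusted p = 5.27e-08). In all, 4 of 26 genes of that list were called in each direction, and without NP F 1 the genes higher in F were 2.

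Of 20 genes listed as androgen-regulated in kidney, 14 were called higher in M and 2 higher in F (median 2.50), and all 17 genes listed as male-high were called higher in M (median 3.84). These lists were drawn up with results of these libraries known, so the counts are no independent evidence of direction. Kap ran from 377500 to 745840 (median 527360) in M and was 170759, 190989, 154840.5, 320344 and 137785 in F (log2 fold change 1.46 ± 0.21, adjusted p = 5.63e-05), without overlap and with a smaller log2 fold change than those of the 4 markers. Odc1, the rate-limiting enzyme of polyamine synthesis and a classic androgen target, ran from 23055 to 55313 (median 36922) in M and was 6453, 5845, 5227, 2866 and 4968 in F (log2 fold change 2.90 ± 0.26, adjusted p = 4.03e-07). Gusb, beta-glucuronidase, ran from 1929 to 15247 (median 7956) in M and was 469, 593, 511, 388 and 585 in F (log2 fold change 3.84 ± 0.47, adjusted p = 1.18e-05). Of the list of female-high genes, 8 of 11 were called higher in F (median -1.54).

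Among hormone receptors and their signaling genes, 5 of 47 were called higher in M and 12 higher in F (median -0.05), beside 7.84% and 11.4% of all genes tested. The estrogen receptor genes were both higher in M. Esr1 ran from 334 to 639 (median 515) in M and was 91.8, 217, 131, 251 and 174 in F (log2 fold change 1.54 ± 0.19, adjusted p = 1.27e-05). Esr2 ran from 76.5 to 379 (median 150.1) in M and was 6.2, 12.6, 7.6, 5.1 and 10.4 in F (log2 fold change 4.65 ± 0.49, adjusted p = 2.59e-06). Ghr, the growth hormone receptor, ran from 17348 to 23120 in M and from 13420 to 18908 in F and stayed below the 1.5-fold threshold (log2 fold change 0.33 ± 0.10, adjusted p = 0.0149). Stat5a, which carries growth hormone and prolactin signals, was higher in F (-0.92 ± 0.16, adjusted p = 0.000428), as were its feedback inhibitor Socs2 (-0.74 ± 0.17, adjusted p = 0.00273) and Cux2 (-0.86 ± 0.22, adjusted p = 0.00593), a female-biased repressor in liver. Socs2 and Cux2 ranges overlapped between the sexes. Egf, made in the distal convoluted tubule and thick ascending limb, was higher in F (-0.91 ± 0.11, adjusted p = 1.63e-05). With the 3 left-out F libraries in the fit, Stat5a (-0.46) and Egf (-0.52) were no longer called, and 7 genes of the list in place of 12 were called higher in F.

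Many markers of podocytes and of the nephron segments after the proximal tubule were higher in F. Of 20 proximal tubule markers, 1 was called higher in M and 2 higher in F, with a median log2 fold change of 0.01. For thin limb 3 of 8 tested markers were called higher in F (1 of 8 without NP F 1), for thick ascending limb 7 of 10, for distal convoluted and connecting tubule 8 of 9, for principal cells 6 of 10, for intercalated cells 6 of 10, and for podocytes 10 of 10. Beside 0 of these markers called higher in M by edgeR, DESeq2, or limma-voom, 1 marker of the thick ascending limb had an unadjusted p under 0.05 in that direction. Median log2 fold changes ran from -0.62 for thin limb to -0.99 for podocytes. With the 3 left-out F libraries in the fit the counts higher in F were 2, 6, 7, 5, 7, and 7.

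Nphs1, the slit diaphragm protein nephrin, ran from 173 to 318 (median 229.7) in M and was 630.2, 551, 571, 560.5 and 516 in F (log2 fold change -1.30 ± 0.12, adjusted p = 4.49e-07). Slc12a3, the thiazide-sensitive salt carrier, ran from 3934 to 9039 (median 6297) in M and was 13624, 13389.6, 14369, 8355 and 11386 in F, with overlap at NP F 1 (log2 fold change -0.92 ± 0.13, adjusted p = 3.88e-05). Slc12a1 (NKCC2, -0.95 ± 0.15), Umod (-0.87 ± 0.17), Calb1 (-1.03 ± 0.16), and the sodium channel subunits Scnn1a (-0.73 ± 0.10), Scnn1b (-0.75 ± 0.10), and Scnn1g (-0.67 ± 0.10) were also higher in F. Of these, Umod, Scnn1a, and Scnn1g were no longer called with the 3 left-out F libraries in the fit (-0.53, -0.50, and -0.56). The water channel Aqp4 of the basolateral principal cell membrane differed more (from 146 to 994 in M against from 1976 to 3423 in F, log2 fold change -2.35 ± 0.34, adjusted p = 6.54e-05). The vasopressin-regulated channel Aqp2 was not called (0.00 ± 0.28, adjusted p = 0.999). Summed over their lists, podocyte markers ran from 3501 to 5404 in M, from 7857 to 10767 in F, and from 5110 to 7934 in the left-out F libraries. M and F sums were also apart for distal convoluted and connecting tubule (M to 26577, F from 30665) and intercalated cells (M to 5718, F from 6560). They overlapped for thick ascending limb (M to 80583, F from 77710) and principal cells (7603.5 to 20688 in M, 14334 to 21782 in F). For thin limb the F range (21817 to 27451) lay within that of M (16272 to 29497). Whether the number of such cells, the share of proximal tubule RNA, or the RNA per cell moves these values was not tested.

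Fewer calls fell on markers of the other cells that a kidney piece can hold. Of all genes tested, 7.84% were called higher in M and 11.4% higher in F. No marker was called in either direction by edgeR among 10 endothelial, 11 smooth muscle and fibroblast, 10 papilla and urothelium, and 9 leukocyte and blood genes tested. Unadjusted p-values under 0.05 were found for 2, 3, 1, and 2 of them. DESeq2 called 1 leukocyte and blood gene higher in M, and limma-voom called 2 smooth muscle and fibroblast genes higher in F. Of the latter list edgeR called 3 higher in F without LP M 4 or without LP F 4, 2 without NP M 3, and 1 without LP M 2 or NP M 5. Without LP F 4 it called 1 endothelial gene higher in F. With all 18 libraries it called 2 leukocyte and blood genes higher in F and 1 papilla and urothelium gene higher in M. Of 9 adipocyte markers tested 1 was called, Pck1, which the kidney itself makes and which was higher in F. All 9 had negative log2 fold changes, from -1.79 to -0.49 (median -1.06), and 2 were called higher in F without LP M 4 or with all 18 libraries. Without LP F 5 the median was 0.79. The adrenal genes Cyp11b1, Cyp11b2, Th, and Dbh were at 0 in all 18 libraries.

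**Figure D4:**
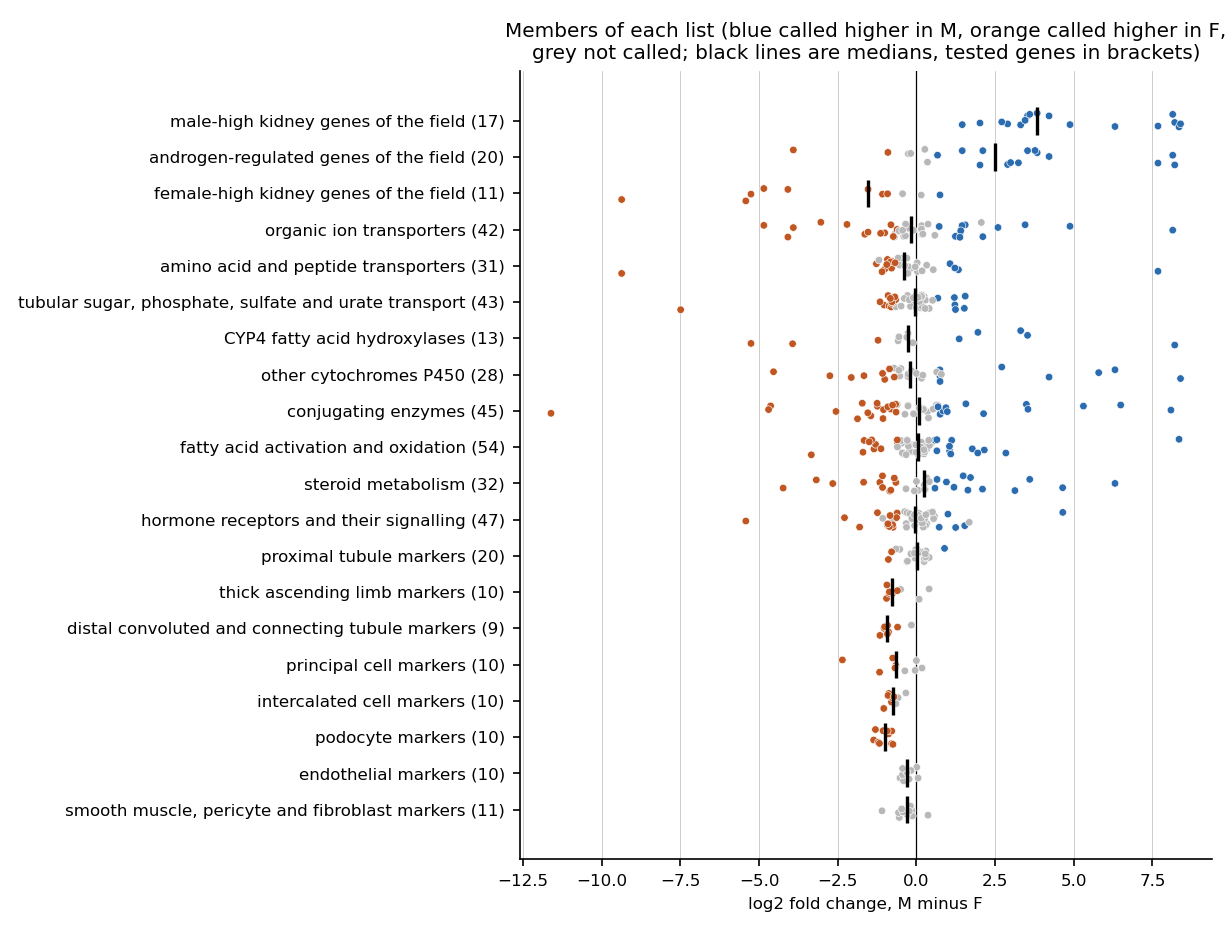
Each point is the log2 fold change, M minus F, of 1 tested gene, grouped in rows by list, with blue points called higher in M, orange higher in F, grey not called, and a black line at the median of the list. Transporter, P450, and conjugation lists spread to both sides of 0, while the distal nephron and podocyte rows lie to the left, with medians between -0.66 and -0.99.

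Vasoactive genes were called higher in M for 2 of 24 and higher in F for 4 (median -0.43), beside 7.84% and 11.4% of all genes tested. Mas1, the receptor of angiotensin 1-7, ran from 215 to 714 (median 393) in M and was 21.4, 17.9, 8.3, 15.3 and 7.5 in F (log2 fold change 4.79 ± 0.37, adjusted p = 8.51e-08). Ace, the angiotensin-converting enzyme, was also higher in M (0.86 ± 0.13, adjusted p = 8.07e-05). Ren1, renin, ran from 808 to 1902 (median 1128) in M and was 2277, 2652, 3155, 1628 and 2493 in F, with overlapping ranges (log2 fold change -1.03 ± 0.19, adjusted p = 0.000445). Mme, neprilysin, which cleaves angiotensin and natriuretic peptides, ran from 2090.1 to 3092 in M and was 8282, 9609, 8265, 6702 and 7198 in F (log2 fold change -1.64 ± 0.09, adjusted p = 2.18e-09).

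Among tubular injury genes 1 of 15 was called higher in M and 6 higher in F (median -0.57). Havcr1 (KIM-1), the usual transcript of proximal tubule injury, ran from 72.1 to 779.8 (median 444) in M and was 5519.7, 1723, 1677, 3144 and 2626 in F (log2 fold change -2.87 ± 0.49, adjusted p = 0.000278). In the left-out F libraries it was 27.8, 59.2 and 89.6, below the M range or at its low end. With these libraries in the fit 3 genes of the list in place of 6 were called higher in F. Spp1, osteopontin, was higher in F (-1.88 ± 0.15, adjusted p = 1.15e-07). Of 20 heme and iron genes 3 were called higher in M and 5 higher in F (median 0.25), with the transferrin receptor Tfrc at 1.14 ± 0.18, adjusted p = 0.000145 and heme oxygenase Hmox1 at 0.80 ± 0.23, adjusted p = 0.0135, the latter with overlapping ranges. Without NP F 1, Hmox1 was no longer called (0.58), and without LP F 3 the genes of the list higher in F were 3. With all 18 libraries 4 genes of the list were higher in M and 2 higher in F. Since the time from the iron-containing injection differed between the sexes, its part in these values cannot be told apart from sex. Of 20 immediate early genes 0 were called higher in M and 5 higher in F, and of 18 clock genes 0 and 2. Beside these and the other lists of this paragraph stand 7.84% and 11.4% of all genes tested, and the clock genes lie near the latter share. Unadjusted p-values under 0.05 toward M were found for 0 immediate early and 2 clock genes, and DESeq2 and limma-voom called 0 of either list higher in M. The 5 immediate early genes became 2 without LP F 4, 3 without NP F 2, and 0 with the left-out F libraries, and the 2 clock genes became 4 without LP M 1 and 1 without LP F 4. Sgk1, Per1, Pdk4, Sult1a1, Mt1, Mt2, Cdkn1a, Dusp1, Lcn2, and Fkbp5 stand in these or earlier lists as well as among the glucocorticoid genes. Genes of that kind had a part in the choice of F libraries and were not taken out of these list counts. To that extent the counts are a description, not a test.

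Genes of general energy and protein production had few calls. Of 89 nuclear genes of oxidative phosphorylation 1 was called, higher in F (median log2 fold change 0.06), and of 86 genes of cytosolic ribosomal proteins 1, higher in M (median -0.17). By chromosome, genes called higher in M made up between 5.72% (chromosome 11) and 10.4% (chromosome 3) of the genes tested, and genes called higher in F between 9.25% (chromosome 17) and 14.2% (chromosome 3). Of genes called higher in M 983 were protein-coding and 173 lncRNA genes, and of those higher in F 1447 and 227.

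The difference between M and F was then fitted within each diet, in a model of the 4 groups. All 1186 genes called higher in M and all 1718 called higher in F had the same sign in LP and in NP. The calls were made on these same libraries of both diets together. That choice of genes largely fixes the shared sign, which is no independent evidence. Within LP (5 M and 3 F) 936 genes (6.19%) were called higher in M and 918 (6.07%) higher in F, and within NP (5 M and 2 F) 1115 (7.37%) and 1203 (7.95%). The median log2 fold change of the genes called higher in M was 0.95 within LP and 1.04 within NP, and that of genes called higher in F -0.85 and -0.98. No gene passed the test of a sex difference that itself differed between the diets (0.0% of the genes tested, edgeR), and 556 had an unadjusted p under 0.05. DESeq2 called 9 genes and limma-voom 0. Without NP F 2 edgeR called 8 genes and without NP M 5 1 gene. The lowest adjusted p, 0.0939, was that of Gfra1, the GDNF co-receptor, whose log2 fold change was -1.33 within LP and 2.61 within NP. It ran from 44.3 to 987 (median 220.4) in M and was 156, 131, 108, 152 and 56.5 in F. With 2 NP F libraries, a gene that misses this test is not shown to have the same sex difference in both diets.

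The 3 left-out F libraries took no part in the fit behind the calls and serve as a description of F kidneys at a lower interferon and glucocorticoid level. Of the 795 genes called higher in M without overlap, LP F 1 lay below all 10 males for 685 (86.2%), LP F 2 for 712 (89.6%), and NP F 3 for 684 (86.0%). All 3 did so for 619 (77.9%) and none for 41. Of the 667 genes called higher in F without overlap, the same libraries lay above all males for 387 (58.0%), 430 (64.5%), and 424 (63.6%), all 3 for 276 (41.4%), and none for 133 (19.9%). For 24 of them all 3 lay below every male. These genes were picked because the same 10 males lay apart from the F libraries of the fit. Such shares over all genes tested were not computed. Whether the shares differ between genes higher in M and genes higher in F was not tested.

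Several genes named above lay on the F side of every male in all 3. Slc7a12 was 672, 5226 and 1705 in LP F 1, LP F 2, and NP F 3, Ugt1a2 8814, 8033 and 4107, Prlr 3560.3, 1164 and 3412, and Cyp4a14 9460.5, 6275 and 7684, all above every male. Slco1a1 was 76.4, 18.6 and 209 and Acsm3 147, 16.1 and 146, all below every male. Cyp2a5, in contrast, was 439, 423 and 746 in these 3 libraries, within the M range. Cyp2a4 was 946, 1564 and 1456, below every male, although in the 5 matched F libraries it overlapped them. Kap was 30318, 114434 and 158340, also below every male. The 3 libraries differ from the 5 in interferon and glucocorticoid levels, and the part of those levels in the values of Cyp2a5 or Havcr1 was not tested.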

How the data were processed

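Poly(A)-selected, non-directional RNA-seq libraries of 18 kidneys were used, 1 per mouse. The values deposited by the authors are whole-number read counts for every gene, not normalized, made by trimming, alignment to GRCm39 with GENCODE vM36, and gene counting in STAR. Versions were not given in the sources used here. Counts taken without regard to strand were used. Reads not assigned to a gene, between 28.6% and 32.9% of those tallied, stayed out. Chromosomes were taken from GENCODE vM39, which held 78168 of 78239 genes, 72844 of them autosomal.

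Genes were tested where the M and F mean counts averaged at least 10, because a minimum in every library removes genes absent from 1 sex. edgeR 4.0.16 (R 4.3.3) was fitted with TMM, quasi-likelihood, and diet plus sex, with Benjamini-Hochberg adjustment over 15127 genes, and was checked on simulated counts. SE is the log2 fold change divided by the root of its F statistic. Normalized counts are counts over TMM-scaled library size, times the mean such size of the 15 libraries.

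Members, lists, and rules were chosen with earlier results of these data known. Genes named by rule were the 4 markers, in each direction the 12 called protein-coding genes with the largest change among those with at least 200 normalized counts in the higher sex and no overlap between groups, and the 5 with the smallest adjusted p. Called list members and stated exceptions were also named. Of 692 listed symbols 3 were not in the annotation and 4 were X-linked. Alternatives used DESeq2 1.42.0, limma-voom 3.58.1, other filters and scalings, all 18 libraries, other thresholds, single diets, and each library left out.

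A few genes are not reported here. The adult animals came from a few litters per the study, and the labels do not tie mice to litters, so some mice may be littermates and p-values measure the spread between these mice.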

Additional observations from a re-analysis of the deposited data

Results flagged for a closer look

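For the 29 genes named by rule, values within the 10 M and the 5 F libraries were examined for 1 library far from the rest (Dixon's test on the log2 scale), in 58 gene and group pairs. Of these, 7 passed, where chance passes about 1 in 20. That rate does not hold for Mpped1 and Synpr in F, where all other F libraries were at 0 and any count above 0 passes. In NP F 1, Inmt was at 357.1 against 59.7 to 73.8 in the other F libraries, Ugt1a2 at 2177 against 9088 to 11380, Mpped1 at 7.121 against 0, and Synpr at 9.156 against 0. NP F 1 is the library with 0.644% of the M mean of Y-linked counts, the highest of the 5 F libraries, and the part of such a trace was not tested. Acsm3 was at 8.914 in LP F 3 against 57.0 to 112.9 in the other F libraries. In NP M 5, Chst11 was at 1801 against 2248 to 2848 in the other M libraries, and Cbr1 at 742.9 against 470.4 to 593.8.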

How the results depend on the processing

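The calls were recomputed under 28 alternatives for each gene named in the text, and with other thresholds for the counts. Of the 112 called genes named, 96 kept their call and direction in every alternative that tested them, and none of the other 16 turned its direction in any. Among these 16 are Cyp2a4, Hmox1, Hsd11b2, Slc7a8, and genes lost with all 18 libraries or within a single diet, where fewer or other libraries entered. Gfra1, not called, had a log2 fold change of -1.31 with LP libraries only. Over filters, scalings, DESeq2, limma-voom, no diet term, all chromosomes, and all 18 libraries the counts stayed within 1.5 times of 1186 and 1718. With the adjusted p alone they were 2599 and 2614, and with a 2-fold minimum 575 and 672. With LP libraries only 992 genes were called higher in M and 973 higher in F, and with NP libraries only 919 and 806. The larger number of calls toward F was thus absent in both single-diet fits. Leaving out each library in turn gave 1103 to 1247 genes higher in M and 1422 to 1817 higher in F. The test of diet dependence gave 121 genes with no filter on low counts, 9 with DESeq2, 2 with all 18 libraries, and 0 to 8 when each library was left out. A replicate block gave counts of 1168 and 1594, and 0 for diet dependence. Deviations of same-numbered M and F libraries correlated at -0.0369, -0.219, and -0.133 in LP and 0.293 and 0.255 in NP. Pairs of different numbers were not examined, and deviations of the 2 NP F libraries from their own mean are mirror images. Whether the numbers pair animals was thus not settled. With the numbers as a block, no call of the genes named changed. Genes under about 10 counts were not tested, and 5 F libraries, 2 of them NP, limit what can be detected.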
